A study of Mus musculus with 8 samples.

Results

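The 9 genes described here encode proteins of the podocyte slit diaphragm and of the podocyte cytoskeleton: Nphs1, Cd2ap, Magi2, Podxl, Ptpro, Synpo, Rhpn1, Plce1 and Thsd7a. They were taken by symbol from a table of 47729 genes, and all 9 were found and passed the filter on low counts, which kept 18548 genes. Expression was measured by RNA-seq of whole kidneys from mice on postnatal day 8. The first group is 4 libraries of Six2Cre+KCTD1fl/fl mice, labelled as nephron-specific Kctd1 knockouts, and the second is 4 libraries of control littermates labelled wildtype. The labels tell neither whether the controls carried a floxed allele or the Cre transgene nor whether the libraries are separate animals, so a p-value reflects the spread among these libraries, which may be technical. The Six2 promoter drives Cre in nephron progenitors, from which podocytes and the tubule epithelium descend, while endothelium, mesangium and stroma lie outside that lineage. The genes were selected on earlier results of this same contrast, their levels in the knockout and wildtype libraries. Their differences between genotypes are therefore given as a description and support nothing on their own.

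Podocytes are the epithelial cells on the outer face of the glomerular capillaries, and their interlocking foot processes are joined by the slit diaphragm, the last barrier of the glomerular filter. Nephrin molecules from neighbouring foot processes meet across the slit, and adaptors inside the cell tie them to actin filaments. Loss of nephrin or of several of its partners causes foot process effacement and proteinuria in mice and in people. In bulk kidney RNA, fewer podocytes and less of a transcript per podocyte cannot be told apart.

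Total counts were 14457760 to 20741076 per library. Kctd1 itself, whose BTB-domain product is a repressor of AP-2 factors, measured 22.4, 25.4, 25.8 and 23.5 CPM in knockouts 1 to 4, against 32.1, 28.9, 32.6 and 32.6 CPM in wildtypes 1 to 4 (CPM, the count relative to the library total, scaled with TMM factors). The knockout kidneys thus held 77.0% of the wildtype level, with no overlap between the groups, and the difference missed the adjusted threshold of 0.05 with edgeR (Benjamini-Hochberg adjusted p = 0.279), while DESeq2 gave 0.0160. Knockout 2 stood apart, with 5.39% of its counts assigned to Rn18s-rs5, a ribosomal RNA, against 0.361% to 1.14% in the other libraries. Xist, the RNA of the inactive X chromosome, was abundant in knockout 2 and wildtype 3 (81994 and 101295 counts) and reached at most 151 counts elsewhere.

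All 9 genes were detected in every library, with between 197 counts, for Magi2 in knockout 3, and 13339 counts, for Podxl in wildtype 4. Compared per transcript length, Podxl was the most abundant at 73.1 ± 11.8 TPM in wildtype kidneys (TPM, the abundance per transcript length relative to the library, SD, n = 4), which placed it above 91.6% of the genes tested. Synpo followed at 28.4 ± 2.01 TPM, then Nphs1 at 21.5 ± 2.58, Cd2ap at 18.2 ± 1.48, Rhpn1 at 15.2 ± 1.54 and Ptpro at 10.8 ± 1.34 TPM. The least abundant were Thsd7a at 4.43 ± 0.946, Magi2 at 2.71 ± 1.09 and Plce1 at 1.73 ± 0.10 TPM. In this order the wildtype ranges of Nphs1 and Cd2ap overlapped, as did those of Cd2ap and Rhpn1, of Thsd7a and Magi2, and of Magi2 and Plce1. The other neighbours were separate.

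**Figure D1:**
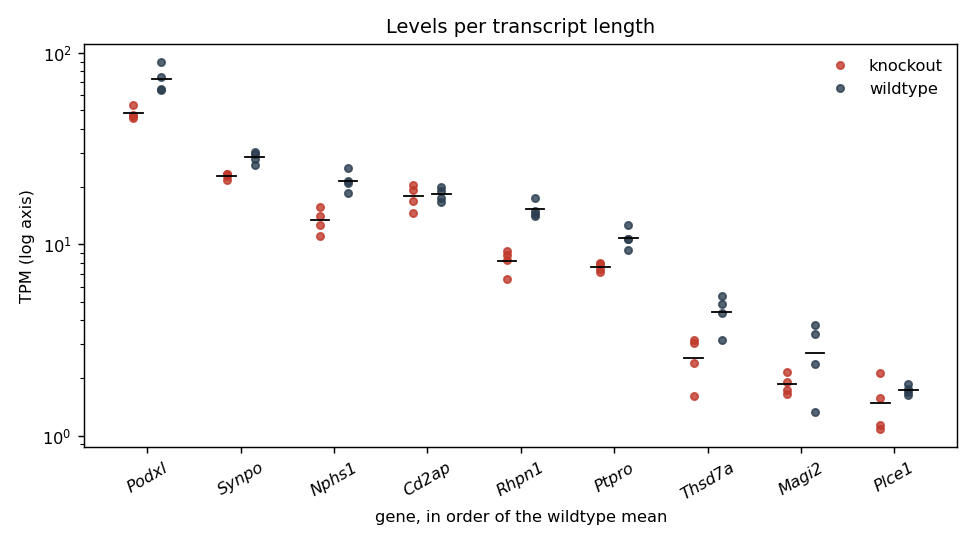
TPM of the 9 genes in knockout (red) and wildtype (dark) libraries on a log axis, each point 1 library and each bar the mean of 4. Podxl lies highest in both groups at 48.3 TPM in knockout and 73.1 TPM in wildtype, and Plce1 lowest at 1.47 and 1.73 TPM.

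The genes lie on 7 chromosomes. Nphs1 lies on chromosome 7 from 30458315 to 30487223 (GRCm38, plus strand), Podxl on chromosome 6 from 31519488 to 31563981 (minus) and Rhpn1 on chromosome 15 from 75704280 to 75715485 (plus). Cd2ap lies on chromosome 17 from 42792951 to 42876665 (minus), Plce1 on chromosome 19 from 38481109 to 38785030 (plus), Ptpro on chromosome 6 from 137252319 to 137463233 (plus) and Thsd7a on chromosome 6 from 12311610 to 12749410 (minus). Magi2 is the longest, at 1477757 bases on chromosome 5 (19227036 to 20704792, plus), and Rhpn1 the shortest, at 11206 bases. Annotated genes overlap 5 of the 9 in the GENCODE M21 annotation, and those with a count averaged at most 23.9 per library, the value of a pseudogene on the strand opposite Nphs1. The totals per gene do not separate transcripts.

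Promoter sequence was looked up because 8 of the 9 genes had lower means in knockout. Of the 9, 6 matched RefSeq entries (GRCm38.p6), with 2 alternative starts for Magi2. Podxl, Synpo and Rhpn1 had no entry. The 3 windows of 250 bases upstream of a start that held at most 10 bases of an annotated exon are shown 5′ to 3′, with matches to the searched motifs in capitals. The Ptpro window is chr6:137252049-137252298 (plus strand), and the Magi2 windows are chr5:19226796-19227045 and chr5:19907268-19907517 (plus strand).
Ptpro: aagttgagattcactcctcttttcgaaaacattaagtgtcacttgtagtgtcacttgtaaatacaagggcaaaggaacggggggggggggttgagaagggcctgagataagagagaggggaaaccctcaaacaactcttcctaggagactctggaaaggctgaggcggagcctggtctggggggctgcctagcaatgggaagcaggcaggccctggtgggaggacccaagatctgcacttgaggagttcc
Magi2 first start: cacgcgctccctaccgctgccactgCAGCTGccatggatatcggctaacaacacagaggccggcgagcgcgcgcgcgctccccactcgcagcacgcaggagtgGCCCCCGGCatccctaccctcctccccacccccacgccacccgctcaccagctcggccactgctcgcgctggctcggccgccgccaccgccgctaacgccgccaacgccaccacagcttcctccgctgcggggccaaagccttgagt
Magi2 second start: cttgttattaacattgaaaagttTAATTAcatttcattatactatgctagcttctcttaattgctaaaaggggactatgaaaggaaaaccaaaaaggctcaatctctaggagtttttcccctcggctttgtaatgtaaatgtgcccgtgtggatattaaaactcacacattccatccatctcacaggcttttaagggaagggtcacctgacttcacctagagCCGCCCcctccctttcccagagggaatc
The motifs, searched on both strands, were GCCNNNGGC for AP-2, GCGGGGGCG for WT1, TAATTA for LMX1B, the E-box CAGCTG and the GC box GGGCGG. The first Magi2 start held 1 AP-2 match and 1 E-box, and the second held 1 TAATTA and 1 GC box, while the Ptpro window held no match. No matches overlapped in the windows shown. Among the windows not shown, that of Cd2ap held 1 AP-2 match and 1 E-box, that of Thsd7a 1 E-box and 1 GC box, and those of Nphs1 and Plce1 none. Annotated exon covered 241 of the 250 bases for Cd2ap, 157 for Thsd7a and all 250 for Nphs1 and Plce1. The Nphs1 and Plce1 windows lay inside the annotated gene, so their lack of matches says nothing of the sequence upstream of it. Over all 32851 promoter windows, 13.7% held the AP-2 letters, 2.57% the WT1 letters, 4.84% TAATTA, 13.0% the E-box and 32.7% the GC box. A match of letters is not a binding site. GC content was 53.6% for Ptpro and 72.0% and 41.2% for the Magi2 starts.

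Nephrin was lower in every knockout library than in any wildtype library. Nphs1, the adhesion molecule that spans the slit, measured 56.0, 66.1, 44.1 and 59.3 CPM in knockouts 1 to 4, against 81.5, 74.3, 80.8 and 89.8 CPM in wildtypes 1 to 4. The means were 56.4 ± 9.21 CPM in knockouts against 81.6 ± 6.36 CPM in wildtypes (SD, n = 4 each), a log2 fold change of -0.53 ± 0.12 (SE). Knockout 3 was the lowest of the 8 libraries and knockout 2 the highest of the knockouts.

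In the intracellular partners of nephrin the groups overlapped. Cd2ap, an SH3-domain adaptor that binds the nephrin tail and is also expressed outside podocytes, measured 205, 205, 181 and 205 CPM in knockouts 1 to 4, against 192, 186, 172 and 193 CPM in wildtypes 1 to 4. Its log2 fold change was 0.10 ± 0.07, turning to -0.04 and -0.05 when TPM values were fitted with limma, a scale on which the median of all genes shifted by -0.11 and -0.14. Magi2, a scaffold with PDZ and WW domains, varied most within the wildtype group. It measured 17.5, 20.6, 13.6 and 13.5 CPM in knockouts 1 to 4, against 29.5, 19.4, 10.6 and 25.2 CPM in wildtypes 1 to 4. Wildtype 3 was thus the lowest of all 8 libraries, and the log2 fold change of -0.38 ± 0.29 became -0.60 without it.

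The most abundant of the genes, Podxl, encodes podocalyxin, the negatively charged sialomucin that keeps foot processes apart and that endothelial cells also carry. It measured 372, 475, 376 and 399.6 CPM in knockouts 1 to 4, against 562, 514, 491 and 641 CPM in wildtypes 1 to 4. The groups did not overlap, and the means were 406 ± 48.0 CPM in knockouts against 552 ± 66.6 CPM in wildtypes (SD, n = 4 each), a log2 fold change of -0.44 ± 0.11. Ptpro, the receptor tyrosine phosphatase of the apical podocyte membrane, had 41.7, 55.9, 38.6 and 37.6 CPM in knockouts 1 to 4, against 47.6, 57.5, 55.2 and 61.2 CPM in wildtypes 1 to 4. Only knockout 2 reached into the wildtype range, and the log2 fold change was -0.35 ± 0.13.

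Among the cytoskeletal genes, Rhpn1 separated the groups and Synpo did not. Rhpn1 encodes rhophilin 1, an adaptor whose loss in mice causes foot process effacement. It measured 38.2, 36.1, 36.6 and 32.3 CPM in knockouts 1 to 4, against 57.0, 58.4, 59.7 and 65.7 CPM in wildtypes 1 to 4. The libraries of each group lay close together, at 35.8 ± 2.49 CPM in knockouts against 60.2 ± 3.85 CPM in wildtypes (SD, n = 4 each), and knockout 2 did not stand apart from the other knockouts. The log2 fold change was -0.75 ± 0.08, a 1.68-fold lower level. Synpo (chromosome 18, 60593973 to 60660142, minus), which encodes the actin-associated protein synaptopodin, measured 136, 168, 138 and 127 CPM in knockouts 1 to 4, against 157, 153, 169 and 163 CPM in wildtypes 1 to 4. The groups overlapped through knockout 2 alone, at a log2 fold change of -0.17 ± 0.09.

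The remaining pair were both of low abundance. Thsd7a, a membrane protein with thrombospondin repeats that is an autoantigen in human membranous nephropathy, measured 28.6, 19.4, 22.1 and 26.3 CPM in knockouts 1 to 4, against 46.5, 28.7, 42.6 and 36.3 CPM in wildtypes 1 to 4. The groups were separated narrowly, by knockout 1 and wildtype 2, and the log2 fold change was -0.68 ± 0.17. Plce1, a phospholipase C mutated in human nephrotic syndrome, measured 30.1, 21.2, 15.5 and 21.2 CPM in knockouts 1 to 4, against 22.2, 26.7, 24.2 and 22.0 CPM in wildtypes 1 to 4. Knockout libraries held both its highest and its lowest value, and its log2 fold change of -0.11 ± 0.17 became 0.02 without knockout 3.

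**Figure D2:**
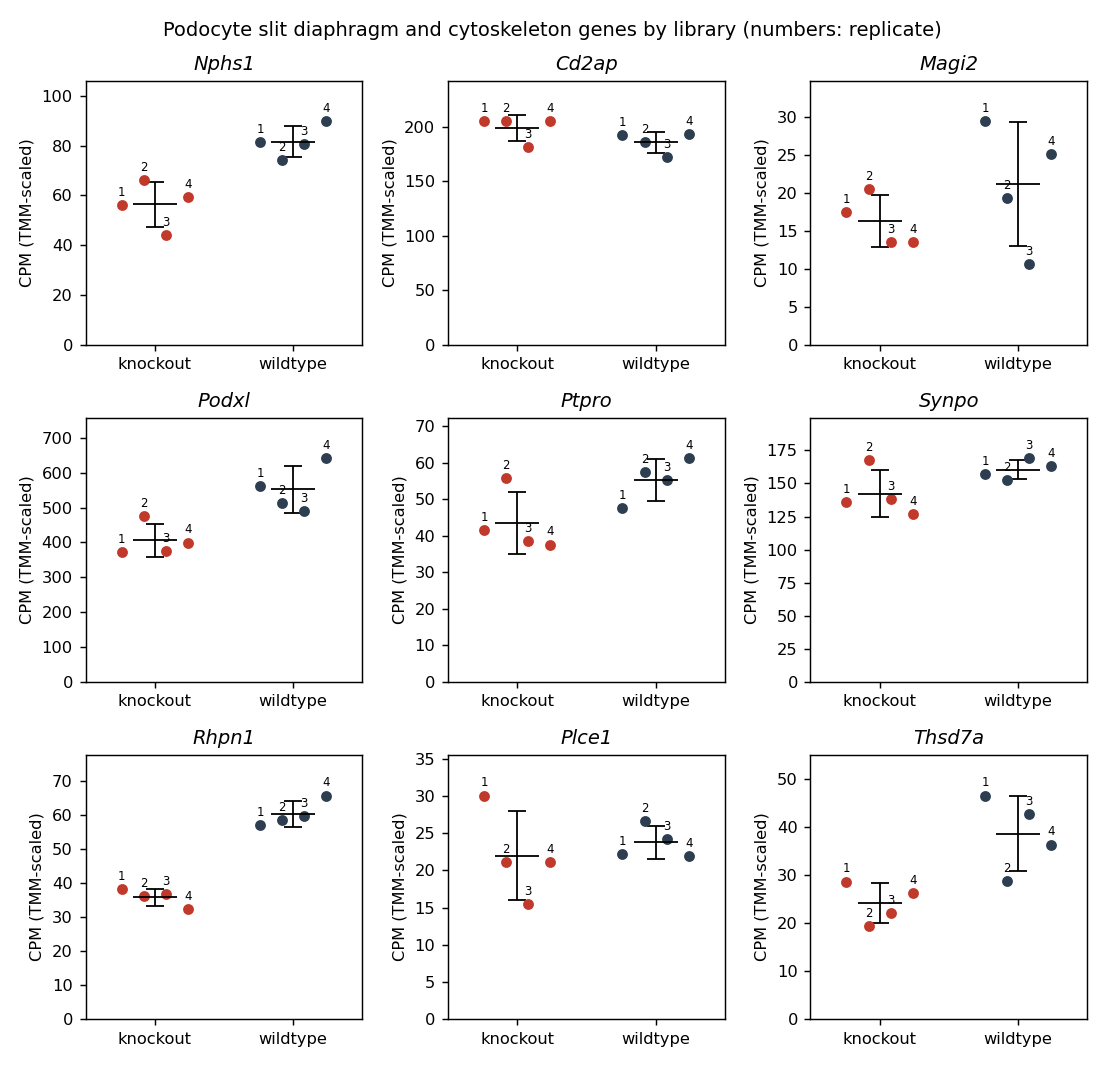
TMM-scaled CPM of each gene in the 4 knockout (red, left) and 4 wildtype (dark, right) libraries, numbered by replicate, with bars for the mean ± SD. Nphs1, Podxl, Rhpn1 and Thsd7a show no overlap, and Rhpn1 has the tightest groups relative to their distance, at 35.8 ± 2.49 CPM in knockouts against 60.2 ± 3.85 CPM in wildtypes.

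In all, 8 of the 9 genes had negative log2 fold changes and 1 a positive one, with a median of -0.38, against 0.001 over all genes tested, of which 49.7% were negative. On the CPM scale 4 genes, Nphs1, Podxl, Rhpn1 and Thsd7a, had all knockout values below all wildtype values, as did 2.06% of all genes, and 0 had all of them above, as did 1.97%. On the deposited TPM values 5 genes lay wholly below, with Ptpro and Synpo added and Thsd7a lost, as did 4.38% of all genes, and 0 lay wholly above, as did 0.394%. At an unadjusted p under 0.05 with edgeR, 5 of the 9 were lower and 0 higher, where 3.08% of all genes were lower and 3.11% higher. After adjustment over all genes edgeR called 15 genes (0.0809% of those tested), 9 lower (0.0485%) and 6 higher (0.0323%). Rhpn1 was among the 9 lower (adjusted p = 0.00744, edgeR), and the other 8 described here had adjusted p from 0.261 to 0.960. DESeq2 called Nphs1, Podxl, Rhpn1 and Thsd7a lower, 4 of the 9, where it called 0.773% of all genes, 0.465% lower and 0.308% higher. These shares stand beside genes that the same contrast picked, and nothing is read from them. With edgeR, Rhpn1 passed in each of the 8 fits that left out 1 library (adjusted p from 0.00771 to 0.0359) and missed the threshold without both Xist-positive libraries, at a log2 fold change of -0.76 and an adjusted p of 0.0984. It also missed it with limma on log2(TPM + 1) and log2(TPM + 0.1) (adjusted p = 0.108 and 0.211). The number of genes called lower over all genes was 39 without wildtype 4, 21 without knockout 3, and 5 without wildtype 2 or without wildtype 3.

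Knockout libraries differed in how far the genes lay below wildtype. The median over the 9 genes of the log2 ratio to the wildtype mean was -0.41, -0.16, -0.61 and -0.47 in knockout 1 to 4, against 0.00, -0.07, -0.01 and 0.13 in wildtype 1 to 4. Knockout 2, the library with the most ribosomal RNA, was nearest to wildtype by this measure on the CPM scale. Summed TPM ranked the libraries otherwise, but it is a different measure as well as a different scale, and Podxl weighs most in it. The 9 genes summed to 128, 114, 119 and 134 TPM in knockout 1 to 4, against 177, 159, 165 and 204 TPM in wildtype 1 to 4, so that knockout 2 was the lowest of all 8 libraries. It had the lowest TPM of the 8 for 5 of the genes, Cd2ap, Podxl, Synpo, Rhpn1 and Thsd7a, while on the CPM scale it was the lowest of the 8 for Thsd7a alone. Without knockout 2 the median log2 fold change of the genes was -0.51, and that library's part in the result was not otherwise tested. Wildtype 4 was the highest wildtype library for 5 of the 9 genes. In knockout 3 and in knockout 4, 7 of the 9 genes lay below all wildtype libraries, against 6 in knockout 1 and 5 in knockout 2.

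**Figure D3:**
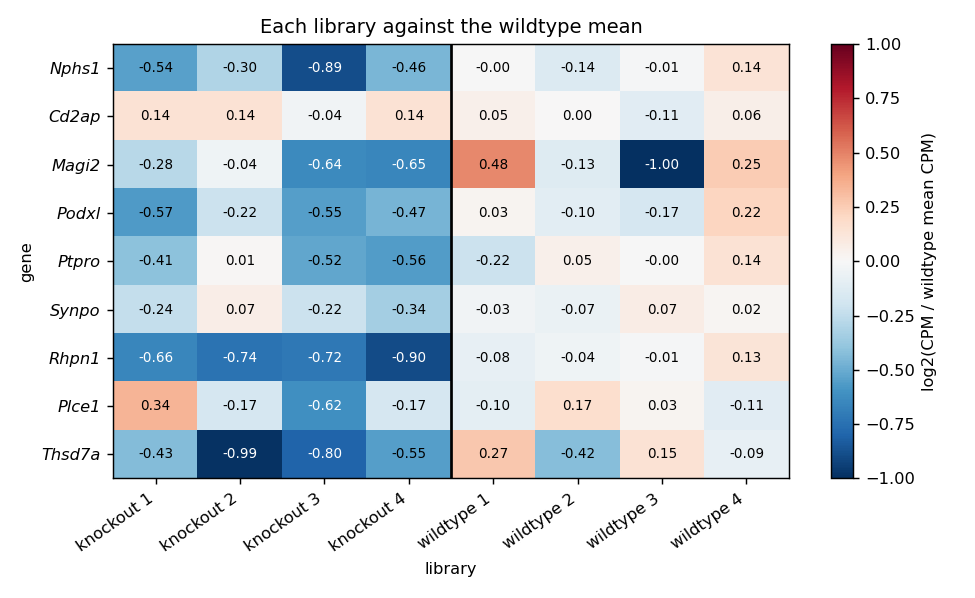
Log2 ratio of each library's CPM to the wildtype mean, by gene (rows) and library (columns, knockout left of the line), with blue below and red above the wildtype mean. Rhpn1 is between -0.90 and -0.66 in all 4 knockout libraries, while Cd2ap stays between -0.04 and 0.14.

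Within a library, ratios of TPM between genes do not depend on the scaling of that library. Nphs1, the divisor, was itself selected on this contrast and was lower in knockout (13.4 TPM against 21.5 TPM in wildtype). A gene that changed little therefore has a higher ratio in knockout, and the ratios below largely restate the Nphs1 difference. The share of all genes with separate ratios was not computed. Relative to Nphs1, Cd2ap had a log2 ratio of 0.41 ± 0.17 in knockout and -0.23 ± 0.11 in wildtype libraries (SD, n = 4 each). Cd2ap was therefore more abundant than nephrin in all 4 knockout libraries (0.21 to 0.62) and less abundant in all 4 wildtype libraries (-0.33 to -0.09). Synpo was likewise higher relative to nephrin, at 0.78 ± 0.23 in knockout and 0.41 ± 0.10 in wildtype, without overlap. The ratios of Podxl, Ptpro, Rhpn1, Thsd7a, Magi2 and Plce1 to nephrin overlapped between the groups. For Podxl they were 1.86 ± 0.17 in knockout and 1.76 ± 0.10 in wildtype, and for Rhpn1 -0.70 ± 0.29 in knockout and -0.50 ± 0.07 in wildtype.

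**Figure D4:**
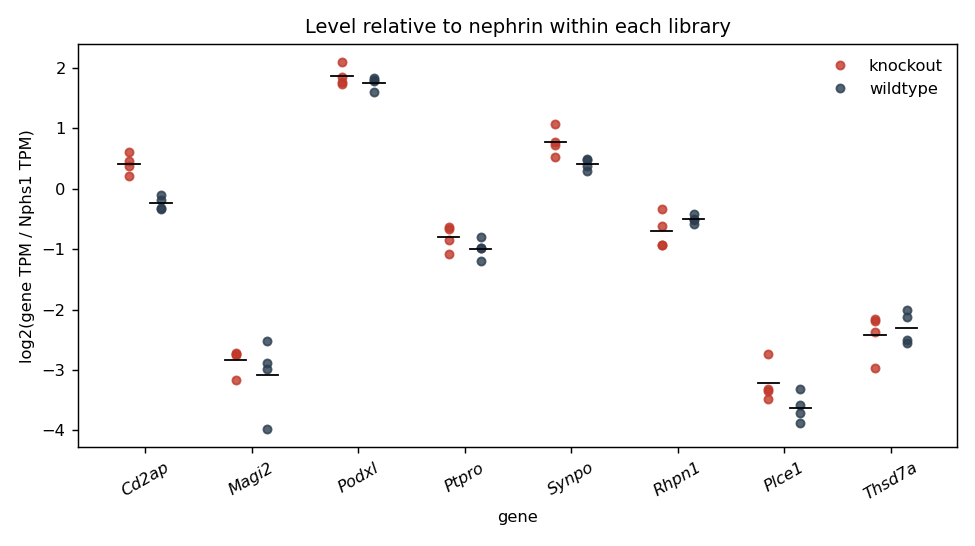
Log2 ratio of each gene's TPM to that of Nphs1 in knockout (red, left) and wildtype (dark, right) libraries, with bars for means. Cd2ap and Synpo lie higher in all knockout libraries than in any wildtype library, and the other 6 genes overlap. The divisor Nphs1 is itself lower in all knockout libraries.

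Other genes of the slit diaphragm, of podocyte actin and of podocytes in general had medians nearer to 0, in lists that were also drawn up with earlier results known. Of 18 further slit diaphragm genes, 0 passed in either direction with edgeR, and 3 were lower and 0 higher before adjustment (p under 0.05), where 3.08% of all genes were lower and 3.11% higher. By DESeq2 2 were lower, Ddn among them, and 0 higher, where 0.465% of all genes were lower and 0.308% higher. Their median log2 fold change was -0.11, with 14 negative and 4 positive. Ddn, which encodes dendrin, a partner of nephrin and Magi2, measured 38.6 ± 4.58 CPM in knockouts against 57.7 ± 8.23 CPM in wildtypes (SD, n = 4 each), with no overlap (log2 fold change -0.58 ± 0.12, adjusted p = 0.211 with edgeR and 0.00339 with DESeq2). Pard6b, of the PAR polarity complex, had 58.9 ± 3.97 CPM in knockouts against 67.0 ± 3.74 CPM in wildtypes.

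Of 25 actin and adhesion genes known in podocytes, edgeR and DESeq2 called 0, with 2 lower and 0 higher at an unadjusted edgeR p under 0.05, beside 3.08% lower and 3.11% higher over all genes. Their median was -0.06, with 19 negative and 6 positive. The formin gene Daam2 measured 67.4 ± 5.82 CPM in knockouts against 78.4 ± 2.40 CPM in wildtypes. Slc9a3r2, the adaptor that links podocalyxin to ezrin, measured 116 ± 6.18 CPM in knockouts against 129 ± 4.25 CPM in wildtypes. Arhgap24, a Rac-inactivating protein, measured 214 ± 3.09 CPM in knockouts against 230.4 ± 2.44 CPM in wildtypes. Of 14 other podocyte-enriched genes edgeR and DESeq2 called 0. At an unadjusted edgeR p under 0.05, 3 were lower and 0 higher (3.08% and 3.11% over all genes). The median was -0.12, with 11 negative and 3 positive, the highest being Nebl at a log2 fold change of 0.45. Rab3b, a vesicle-associated GTPase, measured 8.53 ± 1.41 CPM in knockouts against 13.6 ± 2.93 CPM in wildtypes, with overlapping groups. Htra1, a secreted serine protease, had 41.3 ± 2.62 CPM in knockouts against 50.2 ± 9.10 CPM in wildtypes. Sema3g, a secreted semaphorin, had 163 ± 5.15 CPM in knockouts against 188 ± 23.6 CPM in wildtypes. The groups overlapped for Htra1 and Sema3g as well.

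The family relatives of the 9 genes, 19 tested, had a median of -0.04 and no call with edgeR or DESeq2, and 1 of them was higher and 0 lower at an unadjusted edgeR p under 0.05, near the 3.11% of all genes that were higher and so no result about the relatives. That gene, Plcg2, a phospholipase C of blood cells, measured 39.9 ± 1.39 CPM in knockouts against 34.7 ± 1.5 CPM in wildtypes. Podxl2 and Cd34, the sialomucins closest to podocalyxin, measured 41.4 ± 5.09 CPM in knockouts against 42.4 ± 3.26 CPM in wildtypes for the one and 145 ± 9.46 CPM in knockouts against 153 ± 5.46 CPM in wildtypes for the other, and Plcg1 139 ± 13.2 CPM in knockouts against 132 ± 17.3 CPM in wildtypes. Kirrel2, a nephrin relative, was near the limit of detection at 0.666 ± 0.328 CPM in knockouts against 1.17 ± 0.576 CPM in wildtypes. Kirrel, its more abundant relative in these kidneys, measured 83.1 ± 5.60 CPM in knockouts against 89.4 ± 2.0 CPM in wildtypes. Kirrel, Kirrel2, Kirrel3 and Magi1 were also counted among the slit diaphragm genes above.

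**Figure D5:**
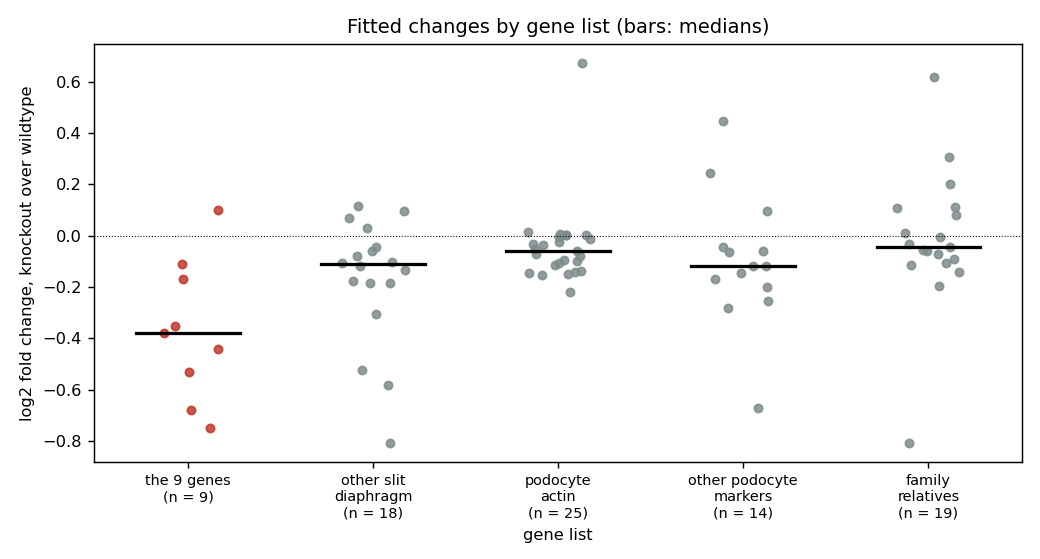
Fitted log2 fold changes, knockout over wildtype, of the 9 genes (red) and of 4 other lists (grey), each point a gene and each bar a median. Kirrel, Kirrel2, Kirrel3 and Magi1 are in both the slit diaphragm list and the family relatives. The medians are -0.38 for the 9 genes, -0.11, -0.06 and -0.12 for the slit diaphragm, actin and podocyte lists, and -0.04 for family relatives.

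Markers of endothelium and of mesangium and pericytes are given beside the podocyte genes. They were measured in whole kidneys, so they do not measure glomerular cells alone. Of 8 endothelial and 7 mesangial and pericyte markers edgeR called 0. At an unadjusted edgeR p under 0.05, 2 of each list were lower and 0 higher, where 3.08% of all genes were lower and 3.11% higher. Their median log2 fold changes were -0.17 for endothelium and -0.07 for mesangium. The summed level of the 8 endothelial markers was 741 to 876 CPM in knockout and 877 to 956 CPM in wildtype. This was 91.0% of the wildtype mean, with 0 markers at 0. That of the 7 mesangial and pericyte markers was 775 to 867 CPM in knockout and 873 to 895 CPM in wildtype (92.7%, 0 markers at 0). The cells of both lists lie outside the Cre lineage. Neither pair of ranges overlapped, but the endothelial sums were barely separate, at 876 against 877 CPM. By gene, 1 of the 8 and 2 of the 7 had all knockout values below all wildtype values, as did 2.06% of all genes. In both lists 0 had all of them above, as did 1.97% of all genes. Plat, the endothelial plasminogen activator, measured 79.0 ± 10.3 CPM in knockouts against 104 ± 2.73 CPM in wildtypes, and the mesangial integrin gene Itga8 109 ± 11.8 CPM in knockouts against 141 ± 1.71 CPM in wildtypes (log2 fold changes -0.39 ± 0.09 and -0.37 ± 0.08). The mesangial receptor gene Pdgfrb measured 162 ± 10.7 CPM in knockouts against 188 ± 2.86 CPM in wildtypes, and Itga8 and Pdgfrb supplied most of the difference in the mesangial sum, which averaged 820.4 CPM in knockouts against 884 CPM in wildtypes. DESeq2 called Plat and Itga8 lower (adjusted p = 0.0278 and 0.00815), where it called 0.465% of all genes lower, and edgeR called neither (0.318 and 0.261). The 6 genes listed as markers of parietal epithelium, the cells that line Bowman's capsule, summed to 582 to 657 CPM in knockout and 503 to 586 CPM in wildtype (110.4%, 0 markers at 0). In whole kidneys this sum does not measure those cells alone. Their median log2 fold change was 0.20, with 5 positive and 1 negative. Of these, edgeR and DESeq2 called 0. At an unadjusted edgeR p under 0.05, 2 were higher and 0 lower, beside 3.11% higher and 3.08% lower over all genes. They were Cldn1 and Cdh6 (log2 fold changes 0.35 ± 0.09 and 0.33 ± 0.11). The 6 proximal tubule markers summed to 3889 to 4033 CPM in knockout and 3777 to 4042 CPM in wildtype, and the 5 nephron progenitor markers tested to 40.2 to 44.8 CPM in knockout and 41.7 to 48.2 CPM in wildtype. The part of a different share of glomerular tissue in the lower podocyte transcripts was not tested.

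The pattern of the 9 genes over the 8 libraries, taken as the mean of their standardized log2 CPM, was compared with 16901 other genes at a mean of at least 1 CPM. The most like was Klhl3, a ubiquitin ligase adaptor of the distal tubule (Pearson r = 0.973), followed by Trak2 (0.971), Hs3st3b1 (0.965), Lrrc8c (0.963) and Abca13 (0.958). The 6 distal convoluted tubule markers, of which Klhl3 is 1, summed to 455 to 543 CPM in knockout and 796 to 868 CPM in wildtype, or 59.8% of the wildtype mean. Such r values include the difference between genotypes and are descriptions over 8 libraries. Of 55 other podocyte genes, 6 were among the 100 most like, where the 100 were drawn from all 16901 genes compared. With each group's mean subtracted, the genes most like included Gm29408 (r = 0.988), Usp34 (0.986), Sos1 (0.983) and Tep1 (0.983). On that pattern 2 of the 55 were among the 100 most like of the 16901. Among the 9 themselves, r to their own mean pattern within groups ran from 0.84 for Nphs1 to -0.04 for Thsd7a, with 0.76 for Podxl and 0.44 for Rhpn1. Each of the 9 is itself part of that mean pattern, which raises its r, so these values show no shared pattern on their own.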

How the data were processed

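Gene expression was measured by RNA-seq of total RNA from whole kidneys with a strand-specific kit, in 4 knockout and 4 wildtype libraries per the labels. Salmon, DESeq2 1.14.1 and mm10 are named in the submitters' processing notes. The annotation release and the strand setting were not stated there. The authors deposited estimated counts, which the file holds as whole numbers, and TPM per gene. Only the TPM file carries identifiers, and the 47729 count rows were matched to its distinct identifiers by position. For 13251 genes whose count was 50 or more throughout, the SD between libraries of log2 count over TPM was 0.000745 at the median (highest 0.00862), and 0.252 with rows shifted by 1.

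Genotype was tested with the quasi-likelihood F test of edgeR 4.0.16 (R 4.3.3, filterByExpr, TMM, robust dispersion, two-sided, Benjamini-Hochberg threshold 0.05 over all genes), a procedure tested on simulated data. The SE of a log2 fold change is its size over the square root of F. The biological coefficient of variation was 20.7%, which limits what can be called with 4 libraries per group. Libraries of a group differed from each other by more than sampling noise. Coordinates are from GENCODE M21 (GRCm38). Every column of both tables was used.

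Members and lists were chosen with earlier results of these data known. All 9 members are named, and from each other list the genes past the threshold or otherwise the 3 with the smallest p, the 3 relatives with the highest wildtype TPM, and the 5 genes most like in pattern. From marker lists only those beside a result are given. Some genes so picked are not reported here. The alternatives were DESeq2 1.42.0, limma-voom, limma 3.58.1 on log2(TPM + 1) and log2(TPM + 0.1), scaling by RLE, upper quartile or total count, no filter, a filter of 1 CPM in 4 libraries, dispersion without the robust option, a block for replicate number, each library left out, and both Xist-positive libraries left out.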

Additional observations from a re-analysis of the deposited data

Results flagged for a closer look

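A library standing far from the rest of its group was found in 6 of 126 gene or marker sets of 4 libraries, and about 6.30 would be found by chance (1 in 20). Among the 9 genes this was Cd2ap in knockout 3, at 181 CPM, with 205 CPM in each of the other knockouts. Among other podocyte genes it was Htra1 at 45.2 CPM in knockout 4, with 39.7 to 40.4 CPM in the other knockouts. Among markers of other cells, the summed thick ascending limb markers reached 2769 CPM in knockout 1, the collecting duct water channel gene Aqp2 478 CPM in knockout 1, the progenitor gene Meox1 17.9 CPM in knockout 1 and the proximal tubule gene Slc27a2 447 CPM in wildtype 4, each above the other 3 libraries of its group.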

How the results depend on the processing

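Over the 9 genes and 20 alternatives, 170 log2 fold changes kept their direction and their side of the threshold. Direction reversed for Cd2ap with limma on log2(TPM + 1) and log2(TPM + 0.1) (-0.0445 and -0.0471) and for Plce1 without knockout 3, with a range of -0.297 to 0.0238 over the 8 fits that left out 1 library. The number of the 9 genes called was 4 with DESeq2 and 0 with limma on either TPM scale, without both Xist-positive libraries and with the replicate number as a block, and 1 in each of the 8 fits that left out 1 library. Their median log2 fold change was -0.50 with log2(TPM + 0.1), -0.535 without the Xist-positive libraries, and -0.51 to -0.29 over the 8 fits that left out 1 library. The number of all genes called was 27 with no filter, 143 with DESeq2, 2 and 5 with limma on log2(TPM + 1) and log2(TPM + 0.1) and 3 without the Xist-positive libraries, against 15, and from 10 to 52 when 1 library was left out (52 without wildtype 4 and 29 without knockout 3). Of the other slit diaphragm genes, 1 was called with no filter and 2 with DESeq2. The causes were not tested, and the fits that left libraries out also had fewer of them. The replicate numbers were not shown to pair libraries (correlations of same-numbered deviations -0.085 to 0.069), so the block, under which Rhpn1 had an adjusted p of 0.102 and 10 genes were called, says nothing of a weaker effect.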
